A study of Homo sapiens and Mus musculus with 47 samples.

Results

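Interferon-stimulated genes and the sensors of foreign nucleic acid that switch them on were followed through a Chrom-seq study in which every cell had received plasmids or antisense oligonucleotides (ASOs), or served as a control for cells that had. The 43 genes were chosen by symbol, with earlier results of these data known, and no measured value enters the rule. All 43 had a row among the 57820 genes of the human tables. Of their title-case mouse symbols, 37 had a row among the 55401 genes of the mouse tables and 6 did not.

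Double-stranded RNA in the cytosol is recognised by RIG-I (DDX58), MDA5 (IFIH1) and the related helicase LGP2 (DHX58), RNA in endosomes by TLR3, and the kinase PKR (EIF2AK2) stops translation when it binds such RNA. Endosomal TLR9 recognises unmethylated CG dinucleotides in DNA, and cGAS recognises DNA in the cytosol. RIG-I, MDA5, TLR3 and cGAS signal through the kinase TBK1 to the factors IRF3 and IRF7, which switch on interferon beta (IFNB1). Secreted interferon then acts through JAK1, TYK2, STAT2 and IRF9 on interferon-stimulated response elements in the promoters of antiviral effector genes such as ISG15, the IFIT, OAS and MX families and BST2.

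Chrom-seq labels RNA close to a histone mark in living cells: a reader domain carrying a GCN4 peptide array recruits the peroxidase APEX2, which attaches biotin-aniline to RNA nearby, and the labelled RNA is pulled down and sequenced. The TAF3 reader, which binds H3K4me3 at active promoters, was compared with a reader-free array in 3 lines, the human colon cancer line HCT116, the mouse embryonic fibroblast line NIH3T3 and the mouse neuroblastoma line Neuro-2a, with 3 libraries for each reader and line. RNA-seq of poly(A)-selected RNA, without biotin pull-down, came from HEK293T cells (a human embryonic kidney line) that expressed the CBX7 reader for H3K27me3, from their controls, and from cells given the control ASO named NC or an ASO against the long noncoding RNA SETD5-AS1, LINC00641 or LINC00662. Each RNA-seq group had 3 libraries, except LINC00641 with 2.

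Per the labels, cells expressed the constructs for 48 h, took up biotin-aniline (500 µM) over 30 min and were then exposed to 1 mM H2O2, during 1 min, to start the labelling. Both arms of each Chrom-seq comparison carried plasmids, so TAF3 against control compares a reader with no reader and not transfected with untransfected cells. The protocol labels of the RNA-seq samples repeat the Chrom-seq protocol, whereas the study describes the RNA-seq control as untreated HEK293T cells. Every group was an established line, the constructs and ASOs were delivered by transfection, and the share of cells that took up a plasmid or ASO was not given in the sources used here. In such bulk samples, more cells with a transcript and more of that transcript per cell cannot be told apart. In Chrom-seq, more of a transcript and more labelling of it cannot be told apart either.

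The sequences of the ASOs are printed because their CG content, shown in capitals, is the feature of DNA that TLR9 reads. All are 20 bases long, 5′ to 3′, and the labels do not say which of those listed for a target went into the RNA-seq.
SETD5-AS1-ASO-1: atcaatgaggatgtcatcac
SETD5-AS1-ASO-2: tcttgctatcatgacaatag
SETD5-AS1-ASO-3: cttaCGcaaCGgataaagcc
LINC00641-ASO-1: gatgtggagcaacagaaatg
LINC00641-ASO-2: gatagtggtatagtaactgg
LINC00662-ASO-1: tgtagtctcttatctgcacc
LINC00662-ASO-2: actctgtctcaaataacttg
LINC00662-ASO-3: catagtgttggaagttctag
ASOXNC23, the negative control: ttctcCGaaCGtgtcaCGtt

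The negative control held 3 CG dinucleotides and had no exact match in hg19. SETD5-AS1-ASO-3 held 2, and the other 7 ASOs held 0. The SETD5-AS1 sites lay in an exon, annotated under the name THUMPD3-AS1, at chr3:9432018-9432037, chr3:9432087-9432106 and chr3:9432132-9432151 on the minus strand. Those of LINC00641 lay in an exon on the minus strand at chr14:21668966-21668985 and chr14:21668698-21668717. LINC00662-ASO-1 matched an exon at chr19:28284662-28284681 and LINC00662-ASO-3 an exon at chr19:28281738-28281757, both on the minus strand. LINC00662-ASO-2 had 0 exact matches in hg19, while LINC00662-ASO-3 had 112 and LINC00641-ASO-1 had 2. TLR9 itself had 0 counts in every HEK293T and HCT116 library analysed here. The human annotation lists TLR9 in duplicate, and how reads shared by 2 entries were counted is not stated, so its absence is not settled. TLR7, an endosomal sensor of single-stranded RNA, had 0 to 2 counts in each HEK293T library.

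Library totals ran from 8258859 to 15330874 counts in HEK293T RNA-seq, 14213105 to 17445889 in HCT116, 15797217 to 17558305 in NIH3T3 and 10012172 to 13317137 in Neuro-2a. Markers of each line were present in its own libraries. Those of HCT116 were also found in HEK293T and those of NIH3T3 in Neuro-2a, so presence alone does not tell the lines apart. Of the immune cell markers, LILRA4 (plasmacytoid dendritic cells) was at 0 in all HEK293T libraries, CD3E (T cells) had at most 1 count in each and PTPRC (all leukocytes) at most 5. The monocyte marker CD14 was at 0 to 0.261 CPM (counts scaled to the library total) in the controls, 0.576 to 0.955 with CBX7, 1.39 to 1.53 with NC ASO and 0.0787 to 0.399 with the targeting ASOs. It moved with the NC group, and its part in the results there was not tested. The targeted gene fell in each ASO group against NC ASO, SETD5-AS1 by 3.62 on the log2 scale, LINC00641 by 4.81 and LINC00662 by 3.0. Against the RNA-seq controls the log2 fold changes were -2.82, -4.32 and -2.90. SETD5-AS1 was itself higher with NC ASO than in those controls (0.81). It was also lower with LINC00641 ASO (-0.82) and LINC00662 ASO (-0.83) than with NC ASO. A gene was called when the adjusted p was under 0.05 and the log2 fold change at least 0.75 in size (edgeR's quasi-likelihood test, Benjamini-Hochberg over all genes tested), and every adjusted p given here comes from that test. The study calls the replicates of some experiments independent, but neither it nor the labels say whether the libraries of a group came from separate cultures, so p-values measure only the spread between these libraries.

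**Figure D1:**
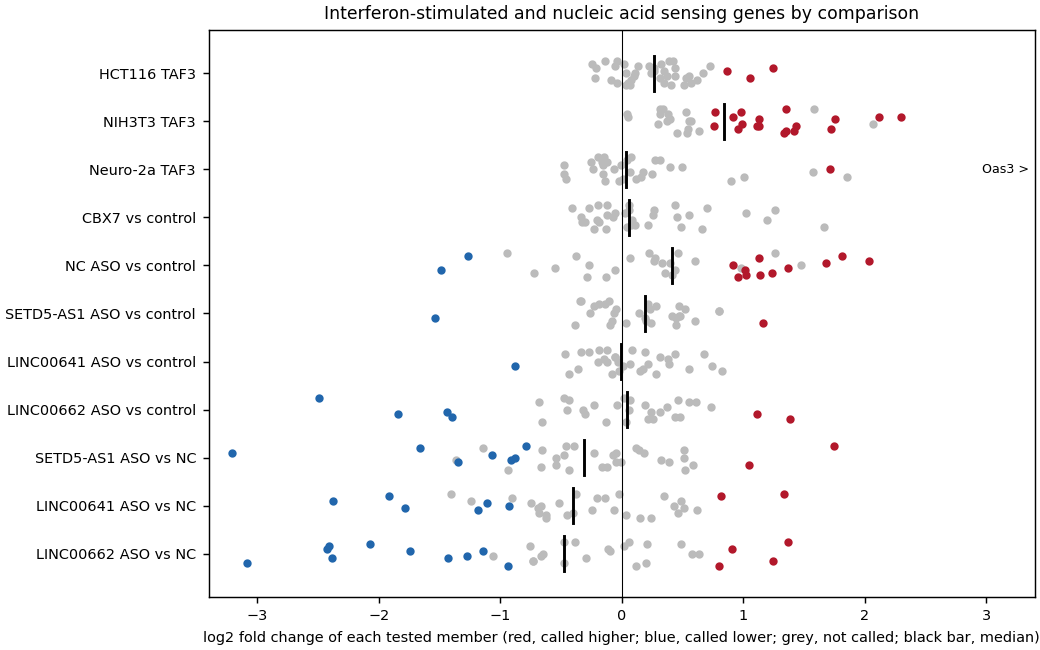
Log2 fold change (x axis) of every tested member in each comparison (rows); red and blue points were called higher and lower, grey points were not called, and the black bar is the median over members. Oas3 in Neuro-2a is off the scale because all of its control libraries were at 0 counts. The NIH3T3 row lies to the right of 0 for all 36 members tested, with a median of 0.84, and the row for NC ASO has both red and blue points.

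Interferon beta was not seen in HEK293T RNA-seq under any treatment. IFNB1 (chr9:21077104-21077943, hg19) had 0 counts in all 17 RNA-seq libraries, where a count of 0 allows up to 0.196 to 0.363 CPM depending on the library. That limit, 3 counts, covers counting error only. Of 43 members, 31 to 37 had at least 3 counts in each library. IRF9 was at 0 in all 23 human libraries analysed here. On its strand it overlaps another annotated gene, and how reads shared by 2 genes were counted is not stated.

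Cells that expressed the CBX7 reader were compared with the RNA-seq controls to ask whether the Chrom-seq constructs set off an innate response. CBX7 itself rose by 1.34 on the log2 scale (standard error 0.11, adjusted p = 1.15e-06). None of 34 members tested was called in either direction, where 4.17% of all genes were called higher and 3.48% lower. DESeq2 also called 0, and 11 members had an unadjusted p under 0.05 by edgeR. The share of all genes under that unadjusted p is not given, so such counts, here and below, are not a result about the genes listed. The median member log2 fold change was 0.06 against -0.01 over all genes.

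The 5 sensors were not called. The log2 differences of DDX58 (-0.23, adjusted p = 0.41), IFIH1 (-0.05, 0.864), DHX58 (0.09, 0.9), TLR3 (-0.27, 0.665) and EIF2AK2 (0.05, 0.721) did not pass the test. Differences smaller than the 0.75 threshold did pass the adjusted p alone in 7 members. IRF7, the factor that amplifies interferon production, was higher by 0.70, IFIT1 by 0.66, IFIT5 by 0.49 and IRF1 by 0.46, while HERC6 fell by 0.41, STAT2 by 0.34 and OAS3 by 0.33. On that rule 13.8% of all genes were higher and 15.4% lower. IFIT3 was the member called most often under other settings, at 1.24 with a replicate block (adjusted p = 0.0375). Its CPM was 1.16, 0.351 and 0.652 in the controls and 2.63, 1.82 and 0.768 with CBX7, so the groups overlapped. When 1 library was left out, 0 to 2 members were called, with IRF7 and IFIT3 called without control replicate 1 (0.87 and 1.73), IFIT1 without control replicate 2 (0.80), IRF7 without control replicate 3 (0.78), IFIT2 and IRF7 without CBX7 replicate 1 (1.5 and 0.76) and IFIT3 without CBX7 replicate 3 (1.63).

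Of the pathway genes that are not members, 0 of 16 signalling genes tested (7 at an unadjusted p under 0.05 by edgeR) and 1 of 22 other interferon-stimulated genes were called with CBX7. The latter was UBA7, the ISG15-activating enzyme, which was higher by 1.29 (standard error 0.35, adjusted p = 0.0117). MB21D1, which encodes cGAS, had 7 reads over the CBX7 libraries and 2 over the controls, too few for the test.

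The cells given the NC ASO were set against the same RNA-seq controls to ask what ASO delivery did. Among 35 members tested, 11 were higher and 2 lower, where 16.2% of all genes were called higher and 16.3% lower. The median log2 fold change was 0.42 for members and 0.01 for all genes. These 2 groups were deposited in different tables, so table and treatment cannot be told apart.

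Among the factors, IRF7 (chr11:612553-615999, hg19) was at 6.98, 3.72 and 6.13 CPM in the controls and at 19.6, 19.9 and 18.9 CPM with NC ASO. All NC libraries lay above all controls, a log2 fold change of 1.81 (standard error 0.17, adjusted p = 1.24e-07). IRF1, an early responder to interferon gamma, was higher by 0.92 (adjusted p = 8.3e-05). STAT2 (chr12:56735381-56753939), a subunit of the factor that carries the interferon signal, moved the other way, from 36.2, 33.3 and 38.5 CPM in the controls to 14.2, 12.9 and 17.4. Its groups did not overlap, and it fell by 1.27 (standard error 0.12, adjusted p = 9.53e-08).

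Of the sensors, 2 of 5 were called. DHX58 (chr17:40253422-40264751) was at 2.0, 0.984 and 1.30 CPM in the controls and 3.94, 3.04 and 3.86 with NC ASO, a rise of 1.37 (standard error 0.29, adjusted p = 0.000698). TLR3 (chr4:186990306-187009223) was at 1.33, 1.90 and 0.978 CPM against 3.4, 2.86 and 3.59, a rise of 1.24 (standard error 0.30, adjusted p = 0.00178). Every NC library exceeded every control for both genes. EIF2AK2 passed the adjusted p but not the size, at 0.42 (adjusted p = 0.000265), and DDX58 (-0.28, adjusted p = 0.223) and IFIH1 (0.27, 0.204) passed neither.

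Effectors went in both directions. ISG20, an exonuclease that degrades RNA, was at 2.25, 1.55 and 1.89 CPM in the controls and 6.25, 5.12 and 6.65 with NC ASO, a rise of 1.68 (standard error 0.23, adjusted p = 7.39e-06). IFIT5, which binds RNA with a 5′ phosphate, rose by 1.14 (adjusted p = 1.55e-07), from 13.1, 15.2 and 13.6 CPM to 29.0 to 32.8. The groups of both genes were fully separate. SAMD9, IFI6, IFIT3 and IFIT1 rose by 0.95 to 1.13. BST2, the tetherin that holds budding virus at the cell surface, fell from 13.1, 11.1 and 12.6 CPM to 3.24, 5.64 and 4.22, by 1.49 (standard error 0.18, adjusted p = 2.75e-06).

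CMPK2, a mitochondrial nucleotide kinase (chr2:6980701-7006766), had the largest fold among the called members, 2.04 (standard error 0.75, adjusted p = 0.0273), on few reads. Its counts were 1, 7 and 0 in the controls and 8, 12 and 9 with NC ASO. The call was lost without control replicate 1 (1.72), control replicate 3 (1.40), NC replicate 2 (1.84) or NC replicate 3 (2.05), at adjusted p = 0.0539 to 0.0963. CMPK2 overlaps RSAD2 on the opposite strand, and reads of such a pair cannot be told apart without strand. The IFIT3 call, at 1.13, was also lost without control replicate 2 (0.78), control replicate 3 (1.05) and each NC library in turn (1.17, 1.05 and 1.18), and DESeq2 did not make it (1.14, adjusted p = 0.0557).

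Signalling genes outside the list were called in both directions too, 3 higher and 5 lower of 16 tested. SOCS1, a feedback inhibitor of JAK kinases, was higher by 2.85, on 45 reads over the NC libraries against 7 over the controls. The adaptor MYD88 was higher by 1.71 and TBK1 by 1.09. TRAF3 fell by 1.18, IKBKE by 1.01 and IFNAR2, a chain of the interferon receptor, by 0.97. JAK1 fell by 0.90 and SOCS3, unlike SOCS1, by 0.82. Of 24 other interferon-stimulated genes tested, 10 were higher, among them GBP2 (2.38), GBP1 (1.98), PSMB8 (1.52), IFITM2 (1.16) and B2M (1.08), and UBE2L6 was lower (-0.82).

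The targeting ASOs were then compared with NC ASO. These 3 comparisons share the NC libraries, so a library effect there would enter each of them. For SETD5-AS1 ASO, 2 of 36 members tested were higher and 7 lower, where 12.9% and 11.5% of all genes were called, with a median of -0.31 against 0.03. For LINC00641 ASO, 2 of 35 were higher and 6 lower, beside 11% and 11.5%, with a median of -0.40 against 0.00. For LINC00662 ASO, 4 of 34 were higher and 10 lower, beside 11.6% and 13.3%, with a median of -0.48 against 0.00.

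IRF7 was at 7.10, 5.76 and 5.51 CPM with SETD5-AS1 ASO, 5.87 and 4.36 with LINC00641 ASO, and 4.52, 3.98 and 4.86 with LINC00662 ASO. Each lay below the 18.9 to 19.9 CPM of NC ASO, and all but 1 library lay within the 3.72 to 6.98 CPM of the RNA-seq controls. Against NC ASO it fell by 1.66 (standard error 0.14, adjusted p = 1.75e-08), 1.92 (0.16, 6.47e-09) and 2.07 (0.14, 2.23e-12). ISG20, at 2.06 to 3.43 CPM over the 8 targeting libraries, fell by 1.07, 1.11 and 1.14. DHX58, at 0.915 to 2.81 CPM, fell by 0.91 (adjusted p = 0.0194), 1.79 (0.000156) and 1.27 (0.00054). For all 3 genes, every targeting library lay below every NC library. The call of DHX58 with SETD5-AS1 ASO was lost without NC replicate 1 (-0.85), NC replicate 3 (-0.87) or SETD5-AS1 replicate 2 (-0.61).

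IFI6, an interferon-induced mitochondrial protein, was at 26.5, 27.4 and 24.1 CPM with NC ASO and at 8.54 to 13.4 CPM in the targeting libraries. It fell by 1.35 (adjusted p = 2.66e-08), 1.19 (1.02e-06) and 1.43 (8.07e-11) in the order SETD5-AS1, LINC00641 and LINC00662. IRF1, at 12.1, 15.4 and 12 CPM with NC ASO, was at 6.68, 8.19 and 6.45 with SETD5-AS1 ASO and 5.49 and 8.15 with LINC00641 ASO, falls of 0.88 (adjusted p = 0.000121) and 0.93 (0.000283). Neither gene's targeting libraries reached the NC range. Without LINC00641 replicate 2, IRF1 stood at -0.67 and was not called.

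CMPK2 counts were 1, 1 and 1 with SETD5-AS1 ASO, 3 and 1 with LINC00641 ASO and 1, 3 and 2 with LINC00662 ASO, against 8, 12 and 9 with NC ASO. It was called lower in each (adjusted p = 0.000933, 0.0141 and 0.00316). From 29 reads against 3, the ratio of NC to SETD5-AS1 ASO was 9.3, with a 95% counting interval of 2.88 to 47.7. The LINC00641 call was lost without LINC00641 replicate 3 (-1.78, adjusted p = 0.119).

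STAT2 and MX1 were higher with targeting ASOs than with NC ASO. STAT2 stood at 29.8, 30.2 and 31.5 CPM with SETD5-AS1 ASO, 26.2 and 25.6 with LINC00641 ASO and 20.6, 23.0 and 23.4 with LINC00662 ASO. These lay between the NC libraries and the RNA-seq controls, and the calls were a rise of 1.05 (adjusted p = 5.34e-07) for SETD5-AS1 and 0.81 (2.78e-05) for LINC00641, the latter not called without NC replicate 2 (0.71). MX1, a GTPase that blocks influenza virus, was at 0.695, 0.347 and 0.988 CPM with NC ASO. It stood at 1.40, 2.65 and 2.75 with SETD5-AS1 ASO, 2.21 and 1.22 with LINC00641 ASO, and 2.33, 1.92 and 0.810 with LINC00662 ASO. The last group overlapped NC. The rises were 1.75 (adjusted p = 0.00187), 1.34 (0.0279) and 1.37 (0.0129). The LINC00641 call of MX1 was lost without NC replicate 1 (1.35), NC replicate 2 (1.02) or LINC00641 replicate 2 (0.86), and with DESeq2 or a replicate block (adjusted p = 0.0803 and 0.0831). The LINC00662 call was lost without NC replicate 2 (1.07) or LINC00662 replicate 1 (1.07).

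LINC00662 ASO had calls that the other targeting ASOs did not. OAS3, which makes the 2-5A messenger that activates RNase L (chr12:113376157-113411054), was at 24.9, 22.9 and 21.1 CPM with NC ASO and at 3.92, 4.46 and 4.35 with LINC00662 ASO. It fell by 2.39 (adjusted p = 1.21e-13), while the SETD5-AS1 and LINC00641 libraries were at 20.5 to 23.3 CPM. SAMD9 (chr7:92728829-92747336), a restriction factor of poxviruses, was at 14.3, 14.8 and 16.7 CPM with NC ASO, 2.26, 2.54 and 3.54 with LINC00662 ASO and 9.08 to 11.6 with the other 2. The LINC00662 libraries were the lowest for both genes, and SAMD9 fell by 2.41 (adjusted p = 9.53e-12). IFI35 went from 6.79, 7.46 and 5.57 CPM to 1.33, 2.54 and 1.84, a fall of 1.74 (adjusted p = 6.57e-07). SAMD9L, next to SAMD9 in the genome, had 17 reads over the NC libraries and 2 over the LINC00662 libraries, a ratio of 9.67 with a counting interval of 2.3 to 86.3. The difference between targeting ASOs was not itself tested.

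Sensors did not follow one direction under the targeting ASOs. IFIH1 was at 5.48, 6.16 and 6.20 CPM with NC ASO, 7.26, 6.67 and 6.14 with SETD5-AS1 ASO, 8.54 and 8.0 with LINC00641 ASO and 11, 11.9 and 9.21 with LINC00662 ASO. It was called in the last alone, a rise of 0.91 (adjusted p = 2.52e-05), with no overlap, beside 0.18 (0.385) and 0.49 (0.0271). The log2 differences of DDX58 were 0.52 (adjusted p = 0.022), 0.24 (0.412) and 0.12 (0.638), those of TLR3 -0.07, -0.40 and 0.21 (adjusted p = 0.837, 0.266 and 0.456), and those of EIF2AK2 -0.12, 0.04 and 0.20 (0.194, 0.738 and 0.0341). None of these was called.

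Of 16 signalling genes tested, 2 were higher and 4 lower with SETD5-AS1 ASO, 2 and 4 with LINC00641 ASO, and 2 and 5 with LINC00662 ASO. JAK1 and TRAF3 were the 2 higher genes in each, by 0.82 to 1.18, and MYD88 fell in each, by 0.98, 1.5 and 1.15. TMEM173, the cGAS adaptor STING, fell by 1.56 with LINC00641 ASO and by 2.14 with LINC00662 ASO. MB21D1, which encodes cGAS, had too few reads for the test. It had 4 over the NC libraries, 2 with SETD5-AS1 ASO, 0 with LINC00641 ASO and 8 with LINC00662 ASO. Of 24 other interferon-stimulated genes, 0 were higher and 5, 10 and 10 lower. B2M fell by 1.10, 0.99 and 0.93, UBA7 by 1.34, 1.84 and 1.65 and PSMB8 by 2.22, 1.56 and 2.01.

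A comparison of each targeting ASO with the RNA-seq controls, chosen after the values above were seen, showed fewer calls. It uses the control libraries of the CBX7 and NC comparisons and again spans both tables. With SETD5-AS1 ASO, 1 of 32 members was higher and 1 lower, beside 3.58% and 2.84% of all genes. With LINC00641 ASO, 0 were higher and 1 lower, beside 2.38% and 3.42%, with 7 at an unadjusted p under 0.05 by edgeR. With LINC00662 ASO, 2 were higher and 4 lower, beside 5.95% and 11.3%. The medians were 0.20, 0.00 and 0.05, against 0.01, -0.01 and 0.00 over all genes.

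BST2 was the member called in all 3 of these and in the NC comparison, with 2.67 to 7.93 CPM over all ASO libraries against 11.1 to 13.1 in the controls. It fell by 1.54 (adjusted p = 4.72e-05), 0.88 (0.00396) and 1.84 (1.27e-07), and the LINC00641 call was lost without LINC00641 replicate 2 (-0.61). TLR3 rose by 1.16 (adjusted p = 0.0115) with SETD5-AS1 ASO, a call lost without control replicate 3 (0.94), and by 1.39 (0.000645) with LINC00662 ASO. With LINC00662 ASO, IFIH1 rose by 1.12 and OAS3, SAMD9 and IFI35 fell by 2.49, 1.44 and 1.40. IRF7, ISG20, DHX58 and IFI6 were not called in any of the 3.

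The mouse fibroblasts gave the broadest difference. In NIH3T3, 18 of 36 members tested were higher with TAF3 and 0 lower, where 10.7% of all genes were called higher and 0.375% lower. On the adjusted p alone, 29 were higher and 0 lower, beside 13.8% and 9.79%. All 36 log2 fold changes were positive, with a median of 0.84 against 0.02 over all genes. DESeq2 also called 18 members. The summed level of the members was 1311 to 1415 CPM in the controls and 2025 to 2136 with TAF3. Of the mouse immune markers, Siglech was at 0, Cd14 was at 1.04 to 2.29 CPM in the controls and 1.07 to 2.36 with TAF3, and Ptprc at 0.174 to 1.02 and 1.01 to 1.5. The part of Ptprc in the result was not tested.

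**Figure D2:**
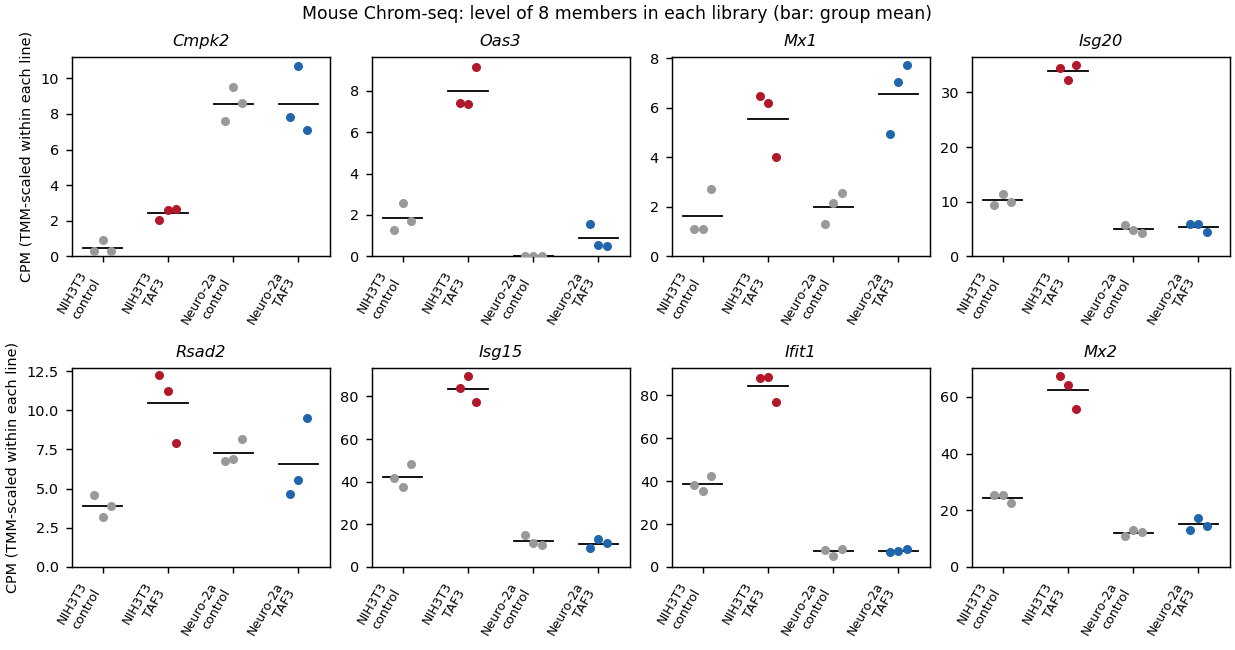
Level of 8 members (panels) in CPM (y axis, scaled within each line) in each Chrom-seq library of NIH3T3 and Neuro-2a cells, control and TAF3 (x axis), with a bar at the group mean. In NIH3T3 every TAF3 library lies above every control for all 8 genes, for example 32.3 to 34.9 against 9.39 to 11.5 CPM for Isg20.

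Isg20 (chr7:78913424-78920396, mm10) was at 9.39, 11.5 and 9.87 CPM in the NIH3T3 controls and 34.5, 32.3 and 34.9 with TAF3, a rise of 1.73 (standard error 0.12, adjusted p = 4.86e-11). Mx2 (chr16:97535308-97560900), a dynamin-like GTPase, was at 25.6, 25.4 and 22.5 CPM against 67.5, 64.4 and 55.8, a rise of 1.35 (adjusted p = 4.72e-11). Mx1 was at 1.10, 1.09 and 2.71 CPM against 6.48, 6.21 and 3.99, a rise of 1.76 (0.00038). None of the 3 had overlapping groups.

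The oligoadenylate synthetases moved alike. Oas3 was at 1.28, 2.56 and 1.69 CPM in the controls and 7.41, 7.34 and 9.17 with TAF3, a rise of 2.12 (adjusted p = 1.51e-06). Oas2 was at 7.13, 11.1 and 9.81 CPM against 26.3, 25 and 24.3, a rise of 1.44 (3.74e-08). Mouse genes of the family under other names rose too, Oas1g by 2.84, Oasl1 by 1.91, Oas1a by 1.72, Oasl2 by 1.11 and Oas1b by 1.08, and with Ifit3b (1.34) they made up 6 of 7 such counterparts tested. The members of this family are close in sequence, and how reads that fit several copies were counted is not stated.

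Cmpk2 (chr12:26469204-26479837) was at 0.290, 0.894 and 0.301 CPM in the controls and 2.06, 2.63 and 2.64 with TAF3, a rise of 2.30 (standard error 0.51, adjusted p = 0.00152). Rsad2, the enzyme viperin that makes a chain-terminating nucleotide, was at 4.58, 3.19 and 3.91 CPM against 12.3, 11.2 and 7.93, a rise of 1.42 (2.11e-05). Irf7 was at 6.38, 6.71 and 6.32 CPM against 17.4, 16.9 and 15.2, a rise of 1.35 (2.86e-07). The 2 groups did not overlap for any of these. The other called members were Ifit3, Ifi44, Ifit1, Usp18, Dhx58, Isg15, Ifi35, Xaf1, Ifi27 and Bst2, with rises of 0.76 to 1.33. Bst2 fell under the size threshold without control replicate 1 (0.70) or TAF3 replicate 3 (0.69), and Ifi27 without control replicate 1 (0.71), control replicate 3 (0.74) or TAF3 replicate 1 (0.72).

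Interferon and the sensors differed less plainly in NIH3T3. Ifnb1 counts were 0, 4 and 1 in the controls and 2, 19 and 2 with TAF3, so that 1 library held 19 of the 23 TAF3 reads, and the difference did not pass the test (adjusted p = 0.244). Ifne, with 8 reads with TAF3 and 14 in the controls, stood at -0.77 and did not pass either (adjusted p = 0.696). Ifna2 had 4 reads with TAF3 and 11 in the controls, in 1 library of each, and was not tested. Dhx58 was at 11.7, 9.77 and 11.9 CPM against 18.9, 24.3 and 23.2, a rise of 0.99 (adjusted p = 6.91e-06). Ddx58, at 62.1 to 69.5 CPM against 88.1 to 98.1, and Eif2ak2, at 199.9 to 234.3 CPM against 326.5 to 331.8, passed the adjusted p with 0.54 (3.04e-06) and 0.64 (1.24e-08) but not the size. Ifih1 (1.58, adjusted p = 0.125) and Tlr3 (0.55, 0.135) did not pass.

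Of 17 signalling genes tested, 1 was called, beside the 10.7% of all genes called higher. It was the nucleic acid sensor Zbp1 at 1.39 (adjusted p = 2.92e-07), and the median log2 fold change of the list was 0.00. Of 24 other interferon-stimulated genes, 5 were higher, Cxcl10 (1.14), Sp100 (1.04), Lgals3bp (0.87), Helz2 (0.83) and Gbp3 (0.83), with a median of 0.42. The reader was present, since the mouse Taf3 gene, whose sequence the reader shares, rose by 6.04.

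In Neuro-2a cells the same contrast called 1 of 33 members higher and 0 lower, where 1.01% of all genes were called higher and 0.0235% lower. The median was 0.04 against 0.03. Mx1 (chr16:97447035-97462907) was at 1.30, 2.17 and 2.56 CPM in the controls and 4.94, 7.02 and 7.71 with TAF3, with no overlap and a rise of 1.71 (standard error 0.32, adjusted p = 0.0383). Oas3 had 0 counts in each control and 16, 6 and 6 with TAF3, at least 10.3-fold higher against a floor of 3 counts over the control group, but its adjusted p was 0.0862. Ifnb1 was at 0 in all 6 libraries.

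The TAF3 replicate 1 of Neuro-2a stood apart from the other libraries, and the biological coefficient of variation over all genes was 0.169 with it and 0.068 without it. Without that library 4 members were called, Samd9l at 1.91 (adjusted p = 0.00845), Oas2 at 1.89 (0.0397), Mx1 at 1.89 (1.48e-05) and Usp18 at 1.16 (0.0168). Without any one of the other 5 libraries the count was 0, with Mx1 at 1.47 to 1.92 and adjusted p = 0.112 to 0.185. DESeq2, and edgeR with no filter on low counts, each called 2, Oas3 and Mx1. None of the sensors was called. Ddx58 was at -0.02, Dhx58 at 0.07 and Eif2ak2 at 0.01, while Ifih1, at 0.50 (adjusted p = 0.53), and Tlr3, at -0.46 (0.864), did not pass the test. Taf3 rose by 3.25. By edgeR, none of 5 counterparts, 15 signalling genes and 21 other interferon-stimulated genes tested was called, with 1, 4 and 1 at an unadjusted p under 0.05, and Ptprc, Cd14, Cd3e and Siglech had no count.

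**Figure D3:**
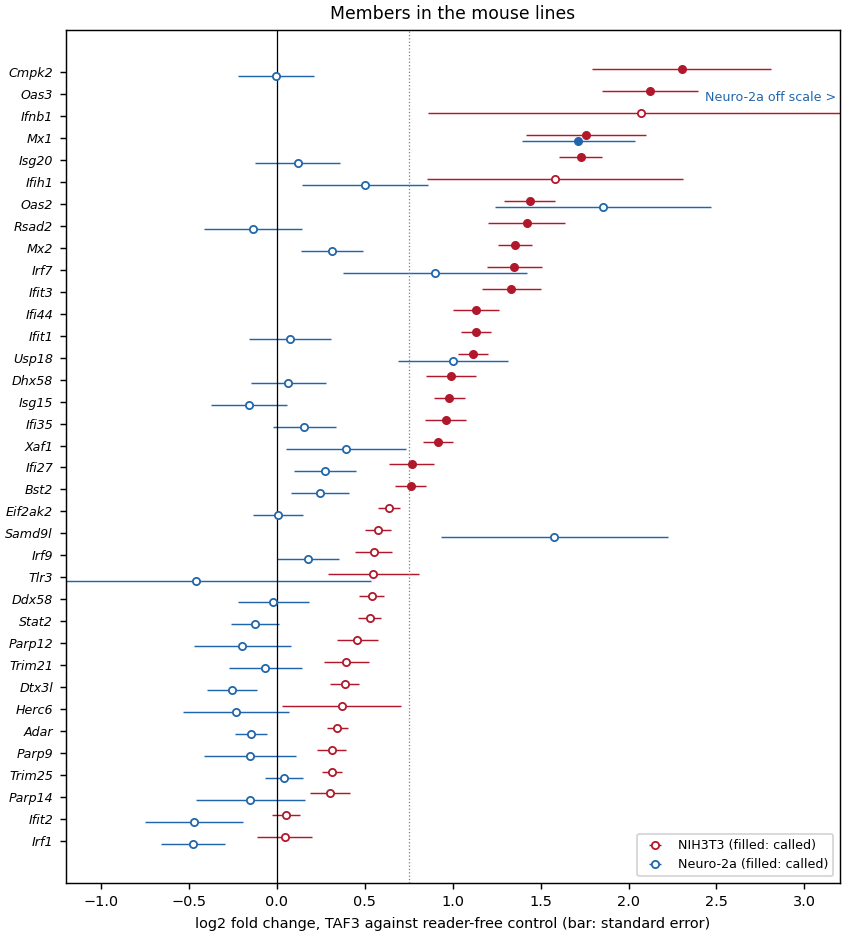
Log2 fold change of TAF3 against control (x axis, bars are standard errors) for each mouse member (rows) in NIH3T3 (red) and Neuro-2a (blue), filled where called, with a dotted line at 0.75. The NIH3T3 points run from 0.04 to 2.30, all right of 0, while the Neuro-2a points lie on both sides; Oas3 in Neuro-2a is off the scale, its control libraries being at 0.

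The difference between the lines was tested with an interaction term over the 12 mouse libraries. Of 35 members tested, 6 had a smaller TAF3 effect in Neuro-2a than in NIH3T3 and 0 a larger one, where 2.33% of all genes were called lower and 0.718% higher. The median difference was -0.53 against 0.01 over all genes. The reader differed between the lines too: Taf3 was at 7875 to 9163 CPM in the NIH3T3 TAF3 libraries and 1582 to 1859 in those of Neuro-2a, and its own fold change was lower in Neuro-2a by a log2 difference of -2.80 (adjusted p = 1.13e-09). Its part in the differences of the members was not tested. Cmpk2 was at 7.60, 9.51 and 8.60 CPM in the Neuro-2a controls and 7.81, 10.7 and 7.12 with TAF3, overlapping groups, and its effect was lower there by a log2 difference of -2.32 (standard error 0.48, adjusted p = 0.00896). Isg20, at 4.21 to 5.83 CPM in the controls and 4.41 to 5.93 with TAF3, differed by -1.62 (0.000706), and Rsad2, at 6.75 to 8.14 against 4.65 to 9.49, by -1.57 (0.0262). The Rsad2 call was lost when NIH3T3 control replicate 2 or 3, NIH3T3 TAF3 replicate 1 or 2, any Neuro-2a control or Neuro-2a TAF3 replicate 2 was left out, with -1.44 to -1.62 and adjusted p = 0.0529 to 0.0821.

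Isg15, the ubiquitin-like modifier (chr4:156199455-156200796), was at 41.7, 37.3 and 48.2 CPM in the NIH3T3 controls and 84.2, 89.5 and 77.4 with TAF3, but at 15, 11.3 and 10.2 against 8.70, 12.9 and 11.1 in Neuro-2a. The difference of effects was -1.15 (adjusted p = 0.00679). Ifit1, which binds capped RNA lacking 2′-O methylation, rose in NIH3T3 from 38.2, 35.3 and 42.3 CPM to 88.4, 88.8 and 76.7. In Neuro-2a it was at 8.06, 5.25 and 8.41 CPM against 6.92, 7.38 and 8.56, a difference of effects of -1.07 (0.0108). For Mx2, at 10.8, 13 and 12.4 CPM against 13.1, 17.3 and 14.6 in Neuro-2a, it was -1.05 (0.00422). In Neuro-2a the groups overlapped for Isg15 and Ifit1, and for Mx2 they did not. Without the Neuro-2a TAF3 replicate 1, the library that stood apart, all 6 were called lower again, Cmpk2 at -2.26, Isg20 at -1.69, Rsad2 at -1.36, Isg15 at -1.01, Ifit1 at -1.0 and Mx2 at -0.95, Dhx58 was called lower too (-0.95, adjusted p = 0.0231), and Samd9l had a larger effect in Neuro-2a (1.31, 0.0286).

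Of the sensors, Eif2ak2 passed the adjusted p without the size (-0.64, 0.0353), and Dhx58 (-0.94, 0.0606), Ddx58 (-0.57, 0.12), Ifih1 (-1.09, 0.559) and Tlr3 (-1.03, 0.66) did not pass. Of the counterparts, Oasl1 (-2.12) and Oasl2 (-1.55) were called lower of 7 tested, as was Lgals3bp (-0.88) of 24 other interferon-stimulated genes. None of 17 signalling genes was called by edgeR, with 3 at an unadjusted p under 0.05.

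In HCT116, 3 of 41 members tested were higher with TAF3 and 0 lower, where 3.34% and 3.28% of all genes were called. The median was 0.27 against -0.01, and 33 of the 41 log2 fold changes were positive. On the adjusted p alone, 23 members were higher and 2 lower, beside 17.9% and 17% of all genes. The summed member level was 3967 to 4451 CPM in the controls and 4570 to 4908 with TAF3.

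MX2 (chr21:42733870-42781317, hg19), which restricts retroviruses at the nuclear pore, was at 2.28, 3.0 and 4.21 CPM in the HCT116 controls and 7.39, 6.26 and 9.02 with TAF3. It rose by 1.25 (standard error 0.20, adjusted p = 1.79e-06). SAMD9L was at 2.95, 3.23 and 1.87 CPM against 5.87, 6.19 and 4.69, a rise of 1.06 (7.8e-05). RSAD2 was at 5.84, 7.33 and 7.37 CPM against 13, 12 and 12.5, a rise of 0.86 (1.59e-06). The TAF3 libraries lay above the controls for all 3 genes. IFIT2 and IFIT3 came near the threshold, at 0.73 and 0.57.

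IFNB1 reads were found in HCT116 Chrom-seq and not in HEK293T RNA-seq. Line and assay differ together there and cannot be told apart. IFNB1 counts were 1, 1 and 0 in the controls and 8, 2 and 4 with TAF3, too few for the test. The ratio of 14 reads to 2 was 7.61, with a counting interval of 1.75 to 69. IFNL1, a type III interferon, had 20, 21 and 15 counts in the controls and 43, 41 and 50 with TAF3, a rise of 1.38 (standard error 0.30, adjusted p = 0.000224). It was 1 of 3 interferon genes tested. In HEK293T RNA-seq the 9 interferon genes outside the list had 3 reads in total over the 17 libraries.

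The HCT116 sensors were not called. TLR3 was higher by 0.51 (adjusted p = 0.00703) with overlapping groups, and DDX58 (0.04, 0.686), IFIH1 (0.07, 0.474), DHX58 (0.10, 0.695) and EIF2AK2 (0.05, 0.506) did not pass. Of the signalling genes, 1 of 17 was called, the nuclear DNA sensor IFI16 at 1.58 (adjusted p = 0.00024), and of the other interferon-stimulated genes 1 of 28, GBP1 at 1.31 (0.0141).

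The promoters of the members were searched for an element of interferon-stimulated genes. Members were chosen as such genes and their sensors, so a higher share than over all promoters follows from the choice and is no separate support. The letters GAAA, any 2 bases and GAAA again, the core of the interferon-stimulated response element, were searched on both strands from 250 bases before to 50 bases after the gene start. In the RefSeq promoters of GRCh38.p14, 21 of 35 members with an entry (60%) held it, against 1255 of 35116 of all promoters (3.57%). The other 8 human members had no entry. In mm10, 15 of 37 members (40.5%) held it, against 773 of 21840 genes (3.54%).

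Among mouse members called higher with TAF3 in NIH3T3, 11 of 18 held the letters (61.1%), and among those tested and not called 4 of 18 did (22.2%). These are descriptions of the letters in the window, with no test. Stretches of 40 bases are shown for 4 of the called mouse members and, to compare species, for human ISG15 and ISG20, in the orientation of the gene and with 1 match of each in capitals. Further matches, some of which overlap the one shown, are left in lower case. TTTC, any 2 bases and TTTC is the same element read from the other strand.
Isg15, chr4:156200860-156200899, minus strand, mm10: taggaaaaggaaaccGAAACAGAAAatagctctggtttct
Oas3, chr5:120777710-120777749, minus strand, mm10: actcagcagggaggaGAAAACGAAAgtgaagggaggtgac
Usp18, chr6:121245832-121245871, plus strand, mm10: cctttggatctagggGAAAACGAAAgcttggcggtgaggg
Ifit1, chr19:34640789-34640828, plus strand, mm10: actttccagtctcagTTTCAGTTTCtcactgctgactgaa
ISG15, chr1:1013375-1013414, plus strand, GRCh38.p14: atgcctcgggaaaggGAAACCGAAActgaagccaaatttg
ISG20, chr15:88638932-88638971, plus strand, GRCh38.p14: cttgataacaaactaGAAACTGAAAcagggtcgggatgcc

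The promoter window held 3 matches in Isg15, 2 in Usp18, Ifit1 and human ISG15, and 1 in Oas3 and human ISG20. The match in capitals began 88 bases before the start in Isg15, 73 in Oas3, 59 in Usp18 and 67 in Ifit1, and 107 and 69 bases before it in human ISG15 and ISG20. Oas3 and Usp18 had the same 10 letters in capitals. Cmpk2, Isg20, Mx1 and Irf7, also called in NIH3T3, held no match in the window.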

How the data were processed

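Raw read counts per gene were taken as the authors deposited them, in 5 tables with 35 of the 47 listed libraries. The table of the other 12, the HEK293T Chrom-seq, was not analysed here, so the 3 comparisons planned on it (TAF3 against control, CBX7 against dPC, and the TAF3 difference between HEK293T and HCT116) were not run. The submitters' processing notes name FastQC 0.11.8, fastp 0.23.1, HISAT2 2.1.0, featureCounts 2.0.1 and DESeq2 1.34.0, with hg19 and mm10. The gene length in the tables spans the whole gene, so reads in introns may be counted, and neither the strand setting of the counting nor its treatment of shared reads is stated. Values of overlapping and closely related genes are therefore uncertain.

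Groups came from sample titles. Counts were fitted over all genes with a summed count above 3 per library by edgeR 4.0.16 (glmQLFit, glmQLFTest, TMM) in R 4.3.3, with Benjamini-Hochberg adjustment. Standard errors are the fold change over the square root of F. The mouse lines were compared by an interaction term. Levels are CPM with TMM factors over the libraries of an assay and line, and between the RNA-seq tables such levels also carry the table. Ratios of few reads have exact 95% intervals (counting error only, since PCR reads are not independent molecules).

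Alternatives were DESeq2 1.42.0, its size factors, no filter, a replicate block and leaving out each library. The edgeR fit was tested on simulated data. The members and the lists of other genes were chosen with earlier results of these data known. A member has its value in every library given where it was called, for at most the 8 largest fold changes in a comparison; IFNB1 and the sensors DDX58, IFIH1, DHX58, TLR3 and EIF2AK2 are given throughout, and at most 6 called genes of each other list. IFIT2 and IFIT3 with CBX7 or in HCT116, and other values beyond that rule, were chosen after they were seen. ASO sequences are those the study lists, matched to hg19, with exons from GENCODE v44 lifted to GRCh37. Promoters came from RefSeq (GRCh38.p14) and, for mouse, from mm10 sequence at the gene starts of the deposited table. Python 3.11.15 and matplotlib 3.10.9 were used.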

Additional observations from a re-analysis of the deposited data

Results flagged for a closer look

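The effect of TAF3 on 6 members differed between the mouse lines by the test of the difference itself, the interaction term of edgeR over 12 libraries. The shares of all genes called lower and higher by it are given with that test above. The log2 fold change of TAF3 against control in Neuro-2a minus that in NIH3T3 was -2.32 for Cmpk2, -1.62 for Isg20, -1.57 for Rsad2, -1.15 for Isg15, -1.07 for Ifit1 and -1.05 for Mx2. In NIH3T3 each of these was higher in every TAF3 library than in every control. The Rsad2 call was lost in 8 of the 12 fits that left 1 library out. The level of the reader differed between the lines as well, with a difference of -2.80 for the Taf3 gene, and its part was not tested. No member had a larger effect in Neuro-2a with all libraries in the fit, and Samd9l did without Neuro-2a TAF3 replicate 1 (1.31).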

How the results depend on the processing

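Over 81 calls of a member in a comparison, 834 values under alternatives gave 0 reversals, 788 kept their call and 46 lost it, and 65 calls held under every alternative run. The count of called members in Neuro-2a, 1 with all libraries, was 2 under DESeq2, 2 without the filter on low counts, and ran from 0 to 4 as single libraries were left out, 4 without TAF3 replicate 1 and 0 without any other. With CBX7 the count was 0, but 1 with no filter and 1 with the replicate block, IFIT3 in each, and 0 to 2 when 1 library was left out. For LINC00641 ASO against the RNA-seq controls it was 1, but 2 with DESeq2, 2 with its size factors, and 1 to 3 when 1 library was left out, 3 without control replicate 2. For SETD5-AS1 ASO against those controls it was 2, and 1 to 3 when 1 library was left out, 1 without control replicate 3. The cause was not tested. In the other 8 comparisons the count stayed within 1.5 times the value given.

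The replicate numbers do not pair the samples: over 31 pairs of same-numbered libraries the deviations from group means correlated at -0.08 to 0.082. Apart from CBX7, the block moved the count of called members only for LINC00641 ASO against NC ASO, from 8 to 7, where MX1 was lost. Depth limits the least abundant genes: a count of 0 allows up to 0.171 to 0.363 CPM over the 35 libraries, which bears on IFNB1 and CMPK2. The LINC00641 ASO group has 2 libraries, so leaving 1 out assumes that the lone library varies like the other group.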
